A study of Mus musculus with 3 samples.

Results

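Reads of 32 to 35 nt, the size of the 5′ fragments that remain when a mature tRNA is cut in its anticodon loop, were followed in small RNA libraries of MIN6 cells. MIN6 is a mouse insulinoma line, which was derived from a pancreatic beta cell tumor and still makes insulin. All 3 libraries were biological replicates of the same condition, cells grown in DMEM with 25 mM glucose and heat-inactivated fetal bovine serum, so no treated or control group exists and the values are given as a description, without a test between conditions. A 5′ start was the position and strand at which reads begin, and its most abundant length was the length with the most reads. Outside the mitochondrial genome, 1457 of 1102095 starts had 20 or more reads in the 3 libraries together and a most abundant length of 32 to 35 nt. These 1457 were 7.47% of the 19498 starts with 20 or more reads. They were chosen by their read number and length, so neither of these is a result about them.

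A tRNA carries an amino acid to the ribosome and reads the codon through its anticodon, 3 bases at the tip of a stem-loop. Nucleases such as angiogenin can cut the mature tRNA in this loop, and the 5′ fragment is often found in small RNA libraries at a size above that of miRNAs. Mammalian genomes hold many identical or nearly identical genes for each tRNA, and the families below are named by amino acid and anticodon (Gly-GCC carries glycine and has the anticodon GCC). Because the copies share their reads, and reads with several equally good loci were divided equally among them, a family is described as 1 RNA and not as several replicates.

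The bases of the leading families could be deduced from the alignments themselves. A base recorded as a mismatch was taken not to be the genome base, and 3 recorded mismatches leave only 1. This failed at 107 of 270004 nuclear positions with a mismatch, where all 4 bases were recorded, and such positions were left unresolved. The first 40 bases of 1 located gene of several leading families (build mm9) are shown because later positions refer to them. The anticodon is in capitals, and n is a base that was not resolved. Up to the most abundant exact length (32 to 34 bases), mismatches were pooled over the 4 to 11 copies with the same exact reads. Later bases come from the named gene alone.
Val-CAC: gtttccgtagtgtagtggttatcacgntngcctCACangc
Val-AAC: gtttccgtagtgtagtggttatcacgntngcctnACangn
Gly-GCC: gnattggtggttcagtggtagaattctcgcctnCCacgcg
Gly-GCC variant: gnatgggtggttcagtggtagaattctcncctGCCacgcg
Lys-CTT: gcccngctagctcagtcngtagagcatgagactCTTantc
Glu-TTC: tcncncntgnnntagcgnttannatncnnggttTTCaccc
His-GTG: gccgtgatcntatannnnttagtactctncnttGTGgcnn

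Val-CAC is n-TVcac7 at chr11:48632044-48632083 (plus strand), Val-AAC is n-TVaac7 at chr11:48670139-48670178 (plus strand) and Gly-GCC is n-TGgcc4 at chr1:172975116-172975155 (plus strand). The Gly-GCC variant is n-TGgcc14 at chr1:173012007-173012046 (plus strand) and Lys-CTT is n-TKctt10 at chr11:48647418-48647457 (minus strand). Glu-TTC is n-TEttc5 at chr13:23555404-23555443 (plus strand) and His-GTG is n-THgtg4 at chr2:122201262-122201301 (minus strand). The gene names are those of RefSeq. The anticodon lies at bases 33 to 35 in the Gly and Cys families and at bases 34 to 36 in the others. Val-CAC and Val-AAC were equal at 35 of 35 positions resolved in both. Up to base 33 this was fixed in advance, because their bases were deduced from mismatches pooled over the same copies. The exact reads of up to 33 nt were shared between these genes and cannot tell them apart. The Gly-GCC variant differed from Gly-GCC at 1 of 37 resolved positions, T5G, counted from base 1 of the tRNA. Gly-GCC and Lys-CTT were equal at 12 of 35 positions.

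The expected counts of the libraries summed to 9269795, 10816006 and 10218743 mapped reads in replicates 1, 2 and 3. As a check of the cell type, reads of Mir375, a miRNA of the endocrine pancreas, came to 334275, 357402 and 371065 RPM (reads scaled to a library of 1000000 mapped reads). The 1457 starts held 321956, 437082 and 412842 reads, or 3.47% (95% Wilson interval 3.46% to 3.48%), 4.04% (4.03% to 4.05%) and 4.04% (4.03% to 4.05%) of the mapped reads. The intervals cover counting error only and treat each read as a separate molecule, although the reads carry no molecular identifiers. The difference between replicate 1 and the other libraries was larger than the intervals. The mean was 3.85% ± 0.328 (SD, n = 3). Of all nuclear reads of 32 to 35 nt, 82.8% ± 1.31 (SD, n = 3) lay at these starts.

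Few starts held most of the reads. The largest start had 67997 reads and the median start 55.2 reads in the 3 libraries together, and 979 of the 1457 had fewer than 100. The 109 starts with 1000 or more reads held 87.2% of the reads, and 151 starts held 90%. Starts with a most abundant length of 33 nt held 39.3% of the reads, those of 32 nt 34.8%, those of 34 nt 17.4% and those of 35 nt 8.56%, although the numbers of starts (375, 385, 329 and 368) were similar. At the minimum itself, the start at chr2:22445368-22445402 (plus strand) lay just inside with 20 reads and the start at chr7:66691519-66691553 (minus strand) just outside with 19.99 reads. Starts with 20 to under 21 reads numbered 28, and 59 further starts of these lengths had 19 to under 20 reads. Beyond the length limits, 434 starts with a most abundant length of 31 nt held 73055 reads and 352 starts of 36 nt held 114225 reads.

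tRNA genes accounted for most of the reads. In all, 234 starts at 155 loci lay in located tRNA genes or at copies linked to them by shared exact reads, and they held 892379 reads, or 76.1% of the reads at the 1457 starts. Per library these were 235181, 337449 and 319749 reads. The level was 29287 ± 3392 RPM (SD, n = 3). Replicate 1, at 25371 RPM, was the lowest, and replicates 2 and 3, at 31199 and 31290.5 RPM, were close to each other. Within the tRNAs, 128 starts in a window from 5 bases before the gene to base 5 held 867173 reads, or 97.2% of the tRNA reads. A further 97 starts inside the genes held 16301 reads, and 9 starts behind the 3′ end held 8905 reads. Of the other starts, 101 lay in snoRNAs, the guides of rRNA modification, with 7.33% of the reads, 51 in rRNA with 2.71%, and 953 could not be named, with 12.3%.

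Gly-GCC and Val-AAC/CAC stood far above the other families at the 5′ end, and together their leading groups of copies held 56.6% of the reads at the 1457 starts. Gly-GCC had 111515, 121502 and 111945 reads in replicates 1, 2 and 3, or 11406 ± 558 RPM (SD, n = 3). Val-AAC/CAC had 60424, 140916 and 140765 reads, or 11107 ± 3992 RPM (SD, n = 3). The means of these families differed by less than the spread between replicates, and their order was not the same in every library, with Gly-GCC higher in replicate 1 and Val-AAC/CAC higher in replicates 2 and 3.

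Lys-CTT, a lysine tRNA, had 28806, 30523 and 25411 reads, or 2805 ± 311 RPM (SD, n = 3). Glu-CTC, a glutamate tRNA, had 20384, 22438 and 21516 reads, or 2126 ± 64.8 RPM (SD, n = 3). Lys-CTT was above Glu-CTC in every library, and both lay below Gly-GCC and Val-AAC/CAC in every library. His-GTG, the histidine tRNA, had 2758, 7292 and 6911 reads, or 549 ± 218 RPM (SD, n = 3). The other glutamate family, Glu-TTC, had 2596, 3842 and 3969.5 reads, or 341 ± 55.6 RPM (SD, n = 3), below His-GTG in every library. With exact alignments only, this order turned, with His-GTG at 208 RPM and Glu-TTC at 396 RPM. At 2 of its starts, on chromosomes 1 and 14, with 2424 reads each, membership rested on other starts of the same copy, and without them the level was 182 RPM.

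The remaining families were rare at these lengths. Cys-GCA had 1984 reads and 65.5 ± 4.80 RPM, and Gly-CCC had 1309 reads and 43.2 ± 0.373 RPM (SD, n = 3). Arg-TCT had 179 reads, Thr-TGT 126, Leu-CAA 43 and Pro-TGG 21. All reads of Leu-CAA and Pro-TGG, and 110 of those of Arg-TCT, lay at starts before base 1. Thus 12 families were found at the 5′ end among the 296 nuclear tRNA genes that could be located in the files, out of 408 in RefSeq. Genes that could not be located carry no statement here, and a read with more than 20 loci was not reported by the alignment, so families with more copies than that could be missing.

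**Figure D1:**
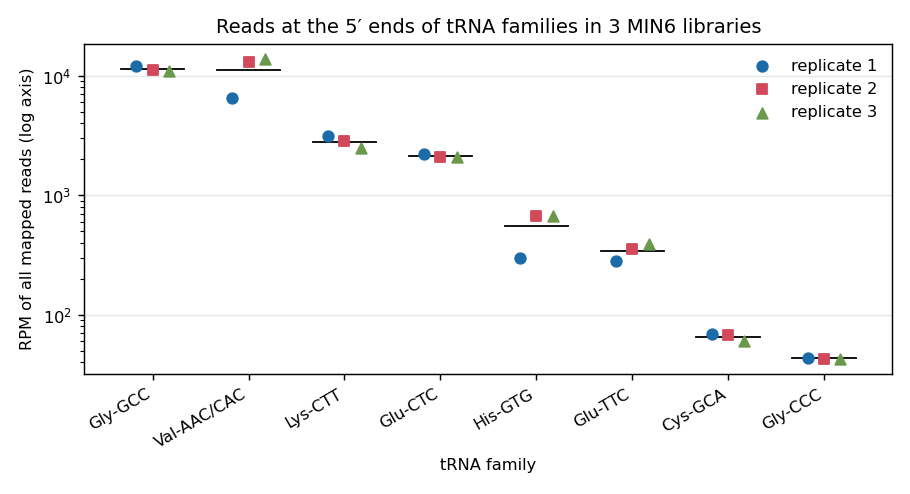
Reads at the 5′ ends of 8 tRNA families, in RPM of all mapped reads on a log axis, with 1 symbol per library and a line at the mean. Val-AAC/CAC, His-GTG and Glu-TTC were lower in replicate 1 than in replicates 2 and 3, whereas Gly-GCC, Lys-CTT and Glu-CTC were slightly higher in it.

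The families did not vary together between the libraries. The coefficient of variation (CV, the SD divided by the mean) was 3.05% for Glu-CTC, 4.89% for Gly-GCC and 11.1% for Lys-CTT, compared with 16.3% for Glu-TTC, 35.9% for Val-AAC/CAC and 39.7% for His-GTG. The wide spread came from replicate 1. Its RPM was 0.486 of the mean of replicates 2 and 3 in Val-AAC/CAC, 0.441 in His-GTG and 0.753 in Glu-TTC. In contrast, the ratio was 1.08 in Gly-GCC, 1.17 in Lys-CTT and 1.05 in Glu-CTC.

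Most single starts of these families showed the same split. Among starts with 100 or more reads, replicate 1 was the lowest library at 11 of 11 starts of Val-AAC/CAC, 16 of 16 of His-GTG and 6 of 6 of Glu-TTC, and the highest at 7 of 7 of Lys-CTT, 5 of 5 of Cys-GCA, 10 of 11 of Glu-CTC and 22 of 26 of Gly-GCC. The remaining start of Glu-CTC had replicate 1 as the lowest library, with a ratio of 0.930, and 4 starts of Gly-GCC had ratios under 1, down to 0.983. In Gly-CCC replicate 1 was the highest at 2 of 6 starts. Copies share reads, so these counts are not independent. For example, n-TVcac6 on chromosome 1, the start with the most reads of all, had 11814, 28118 and 28065 reads. With 1 condition and 3 libraries, what sets replicate 1 apart was not tested.

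**Figure D2:**
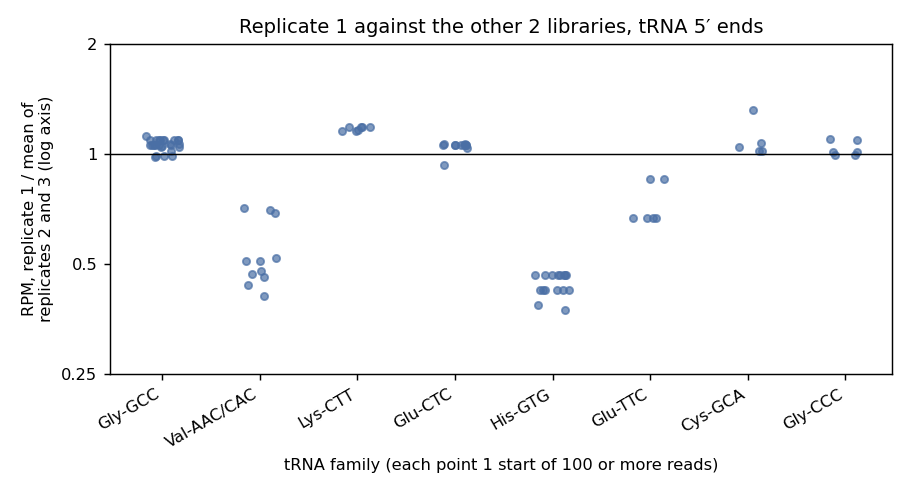
For each of the 88 tRNA 5′ starts with 100 or more reads in these 8 families, the RPM in replicate 1 divided by the mean of replicates 2 and 3, on a log axis. The points of Val-AAC/CAC, His-GTG and Glu-TTC all lie below 1, and those of Lys-CTT and Cys-GCA all lie above it.

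The 3′ ends of the reads that began at base 1 were concentrated at the start of the anticodon. In Gly-GCC, 56.8%, 59.2% and 58.8% of the reads in replicates 1, 2 and 3 ended at base 32, the last base before the anticodon, a mean of 58.2% ± 1.28 (SD, n = 3). In Val-AAC/CAC, 58.6% ± 5.42 ended at base 33, again the last before the anticodon, and 19.3% ± 2.60 at base 34 (SD, n = 3). Lys-CTT differed from both, with 59.0% ± 4.89 at base 34, the first base of the anticodon, 15.5% ± 1.91 at base 32 and 12.3% ± 1.19 at base 33 (SD, n = 3).

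Glu-CTC reads were divided between these positions, with 35.4% ± 0.329 at base 33 and 32.1% ± 2.08 at base 34 (SD, n = 3). Glu-TTC reads ended most often at base 33, at 36.7% ± 2.06, and next at base 30, at 23.2% ± 2.58 (SD, n = 3). Among reads from base 1, the most dispersed ends in the leading families were those of His-GTG, with 22.0% ± 1.38 at base 33, 18.6% ± 5.08 at base 30, 16.1% ± 1.18 at base 31 and 13.0% ± 1.00 at base 34 (SD, n = 3). These are the smaller part of the His-GTG reads. Of those at base 1 or 1 base before it, 61.0% began before it and are not included here. The rule asked for a most abundant length of 32 to 35 nt, so an end near the anticodon followed from it for a start at base 1. The choice between base 32, 33 and 34, and the width of the distribution, did not follow from the rule.

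**Figure D3:**
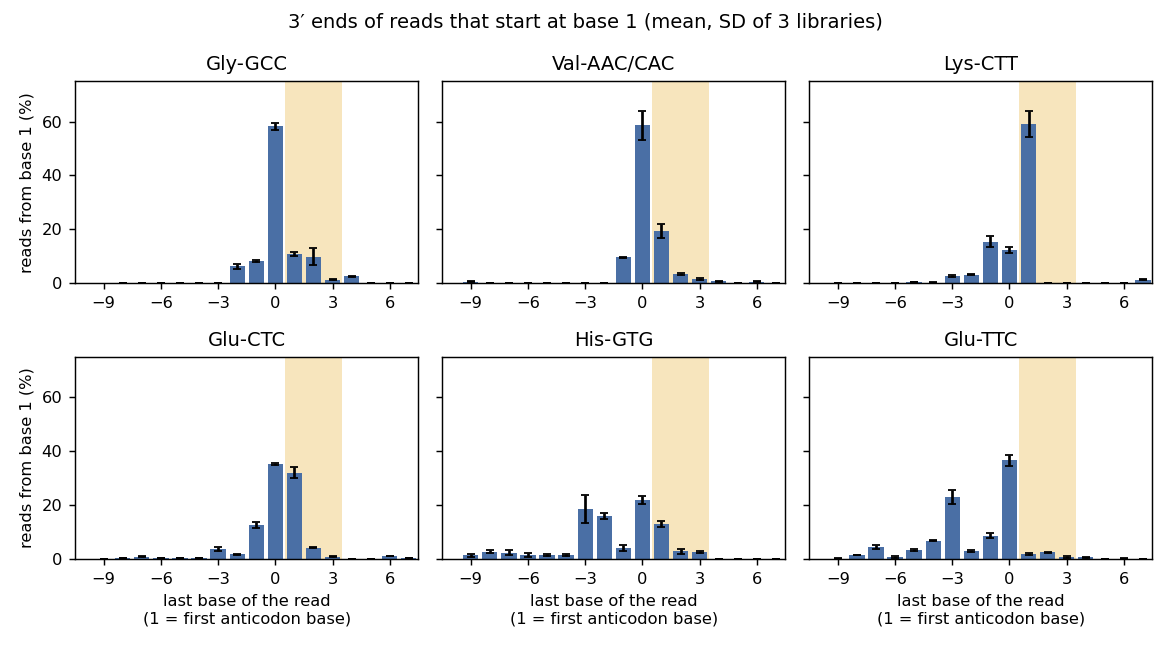
Share of the reads starting at base 1 that end at each base, as mean and SD of 3 libraries, with positions counted from the first anticodon base (1) and the anticodon shaded. Gly-GCC and Val-AAC/CAC ended mostly at the base before the anticodon (58.2% and 58.6%), Lys-CTT at its first base (59.0%), and His-GTG had no end above 22.0%. The His-GTG reads that began 1 base before base 1 are not included.

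Replicate 1 also differed in its 3′ ends. In Val-AAC/CAC, 52.4% of its reads ended at base 33, compared with 61.6% and 61.9% in replicates 2 and 3. In Lys-CTT, 64.5% of its reads ended at base 34, compared with 57.1% and 55.3%. In Gly-GCC, 13.4% ended at base 34, the second base of the anticodon in this family, compared with 8.86% and 7.34%. In Lys-CTT and Gly-GCC replicate 1 thus had a larger share of reads ending at base 34 than either of the other libraries, as in Val-AAC/CAC, where the shares were 22.2%, 18.6% and 17.1%. In Glu-CTC the share at base 34 was likewise 34.5%, compared with 31.01% and 30.8%. Glu-TTC went the other way, with 1.68% at base 34 in replicate 1 and 2.19% and 2.15% in replicates 2 and 3. In His-GTG replicate 1 stood apart at base 30, with 12.7% compared with 21.8% and 21.2%, and at base 34 its share was 13.9%, compared with 11.9% and 13.2%.

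Over all 1457 starts, 57.1%, 59.1% and 59.5% of the reads in replicates 1, 2 and 3 had the most abundant length of their start, a mean of 58.6% ± 1.28 (SD, n = 3). The median start had 44.2% of its reads at this length. The read-weighted share was above that of the median start, and the leading starts share their reads among copies.

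Recorded mismatches inside the reads fell at few positions of each family. Leaving out the last 3 bases of each read, the median position had a mismatch in 0.0487% to 0.0650% of the reads in the 6 leading families. Against this, G6T was recorded in 15.4% ± 0.541 of the Gly-GCC reads and A20C in 7.45% ± 0.0898 (SD, n = 3). Here and below the first letter is the genome base, the number the position in the tRNA and the last letter the base of the read. A24C was recorded in 14.2% ± 0.627 of the Val-AAC/CAC reads, 11.2% ± 0.794 of the Glu-TTC reads and 9.06% ± 1.21 of the His-GTG reads (SD, n = 3). In Glu-CTC, whose bases are not shown, C was recorded as a mismatch at base 24 in 11.4% ± 0.193 (SD, n = 3).

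His-GTG had a further position, A12C, at 16.3% ± 0.232 (SD, n = 3). In Lys-CTT the leading position was A29C, at 9.82% ± 0.385 (SD, n = 3), and A9C was recorded at 2.39% in Lys-CTT and 2.38% in Val-AAC/CAC. In Gly-GCC, the next highest share of C among the 5 resolved A positions was 0.00942%, at base 14, compared with 7.45% at base 20. The per-library values were 14.9%, 15.4% and 15.97% for G6T in Gly-GCC, whereas A24C in His-GTG was lower in replicate 1, with 7.66%, 9.90% and 9.61%. The origin of the mismatches was not tested.

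**Figure D4:**
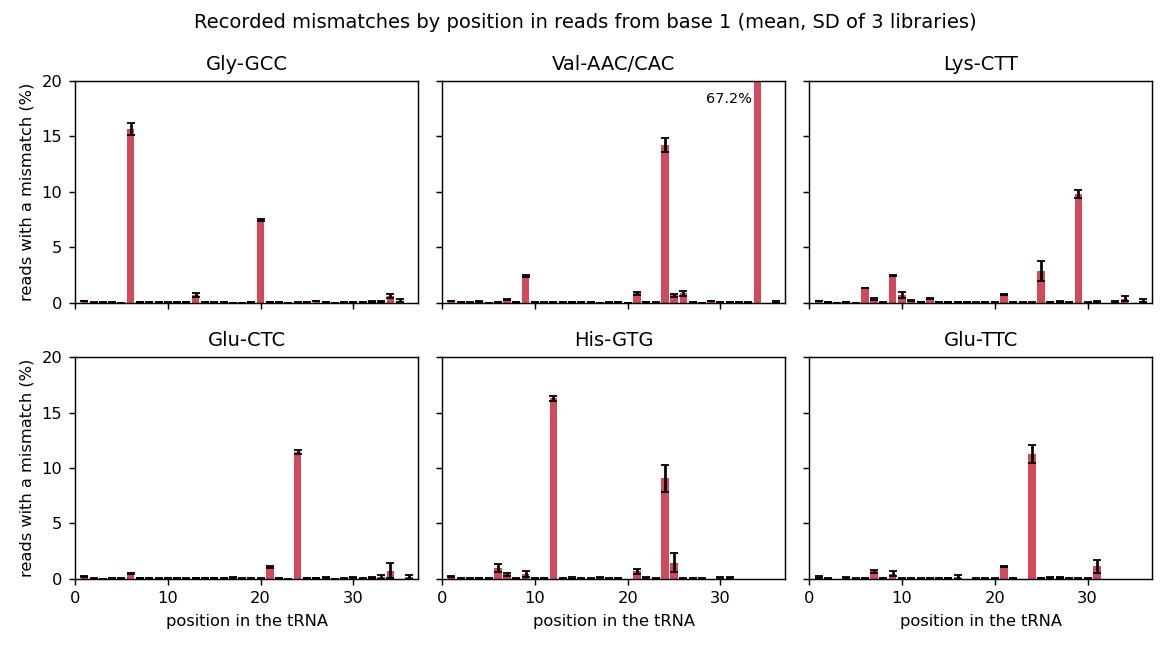
Share of reads from base 1 with a recorded mismatch at each position of the tRNA, as mean and SD of 3 libraries, for 6 families, leaving out the last 3 bases of each read. Each family had 1 to 2 positions above 5%, and the bar at base 34 of Val-AAC/CAC runs past the axis, with its value of 67.2% printed beside it.

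Base 34 of valine tRNAs, the first anticodon base, was the position with the most mismatches. In tRNAs with the anticodon AAC this base is known to be converted from adenosine to inosine, which is read as G in sequencing. Among the 10794 reads of the family with 36 nt or more, base 34 was G in 68.7%, 68.7% and 67.3% in replicates 1, 2 and 3, C in 31.1% ± 0.858 and A in 0.130% ± 0.0305 (SD, n = 3). The value for G was 68.2% ± 0.835 (SD, n = 3). At the Val-AAC genes alone, where the gene name gives A as genome base, G made up 98.6% ± 0.0779 of these reads and A 0.459% ± 0.0958 (SD, n = 3). At the Val-CAC genes C made up 43.2% and G 56.4%. At the Val-AAC genes C made up 0.348%. A read with C at base 34 matches the Val-CAC genes better and was placed there. The low share of C at the Val-AAC genes, and in part the 98.6% of G, thus follow from the alignment. A read with G at base 34 mismatches both genes equally well and was divided between them, so the value at the Val-CAC genes is not that of their own transcripts.

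Of the Val-AAC/CAC reads of 34 nt, which end at this base, 27.6%, 35.3% and 42.2% in replicates 1, 2 and 3 had a mismatching last base, and it was a G in 88.1% of these. The reads of 33 nt, which end 1 base earlier, had a mismatching last base in 2.79% ± 0.174 (SD, n = 3). In Lys-CTT, whose most abundant reads also had 34 nt, the last base mismatched in 0.213% ± 0.0496 (SD, n = 3). Over all 1457 starts, the last base mismatched in 5.72% ± 0.410 of the reads, compared with 14.2% ± 0.307 at the other starts with 20 or more reads (SD, n = 3), which include the miRNAs. Reads with any mismatch made up 27.8% ± 0.837 at the 1457 starts and 25.5% ± 0.0518 at the other starts (SD, n = 3).

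His-GTG was also set apart at its 5′ end. Histidine tRNA is known to receive a G before its first base after transcription, so that mature molecules are 1 base longer at the 5′ end than the gene. Of the His-GTG reads that began at base 1 or 1 base before it, 63.3%, 59.8% and 59.9% in replicates 1, 2 and 3 began before it, a mean of 61.0% ± 1.98 (SD, n = 3). These were 10247 reads at 8 starts. In the other families starts 1 base before the gene mostly fell short of the minimum of 20 reads or the length limits, so the share was also taken over all reads at these positions, whatever their number or length. It was then 0.0352% in Gly-GCC, 0.0280% in Val-AAC/CAC, 0.0478% in Lys-CTT, 0.0540% in Glu-CTC and 0.0436% in Glu-TTC, and stayed at 61.0% in His-GTG. In the rarer families it was 0.258% in Cys-GCA, from 5.07 reads, and 0% in Gly-CCC.

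The added base of the His-GTG reads did not match the genome in 99.7% of them. It was G in 61.9%, 55.2% and 54.9% of these reads in replicates 1, 2 and 3, T in 32.1%, 39.0% and 39.8%, and A in 5.55%, 5.55% and 4.95%. G was the most frequent base in every library, with a mean of 57.4% ± 3.95, followed by T at 36.9% ± 4.23 (SD, n = 3). The reads that began with G were most often 34 nt long (32.2%) and ended at base 33, whereas those that began with T were most often 31 nt long (24.8%) and ended at base 30.

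Copies of a family lay scattered and in clusters. Joining starts within 10 nt gave 801 loci, of which 450 had 1 start. Linking loci with the same exact reads in every library gave 512 groups, of which 94 had 2 or more loci and held 84.3% of the reads. The 15 leading groups held 82.6%. The leading Gly-GCC group had 12 loci on chromosomes 1, 2, 3, 8, 10, 11 and 13, and its 9 highest loci held 31569 to 31633 reads each, for example 10267, 11115 and 10250 in replicates 1, 2 and 3 at n-TGgcc4. The leading Val-AAC/CAC group had 7 loci, from 27799 reads on chromosome 3 to 67997 at n-TVcac6. A further Val locus, n-TVaac3 at chr13:22107700-22107732 (minus strand), formed a group of its own with 2644, 4221 and 4340 reads and a CV of 19.8%. A second Gly-GCC group, of 4 loci with the start at chr1:172996762-172996793 (plus strand) in the lead, had 3149, 3854 and 3392 reads and a CV of 3.64%. The groups of Lys-CTT (7 loci), Glu-CTC (18), His-GTG (8) and Glu-TTC (6) held 84432, 75400, 16961 and 11269 reads. Only 10 of the Glu-CTC loci lay at the 5′ end, and the others were second loci of the same copies, at base 15. The reads of the Glu-CTC and Glu-TTC groups include starts inside the genes.

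On chromosome 1, 9 loci of Glu-CTC, Gly-GCC and Val-AAC/CAC lay within chr1:172975116-173041574 and held 16.3% of the reads at tRNA 5′ ends. A cluster of 5 loci at chr11:48632044-48670139 held 16.4%, one of 12 loci at chr3:96115177-96305441 held 10.7% and one of 7 loci at chr13:23390650-23609075 held 9.66%. The shares follow the equal division of reads among copies and do not show which copy was transcribed.

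How many reads had a single locus depends on how it is read from the counts. A count that is a whole number can come from reads with 1 locus or from a number that happened to divide evenly. By whole numbers, 32.7%, 32.3% and 47.7% of the reads at the 1457 starts in replicates 1, 2 and 3 had 1 locus. Leaving out whole numbers of 20 or more that recurred with the same length and mismatches at another locus, 18.9%, 16.9% and 16.4% remained, or 17.4% ± 1.32 (SD, n = 3). At the other starts with 20 or more reads, 86.6% of the reads had whole numbers.

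Starts inside the tRNA genes were led by Glu-CTC, where 12 starts held 3200, 4528 and 3335 reads in replicates 1, 2 and 3. Its leading start was at base 15, with 768, 1104 and 854 reads, and 69.1% of these had 35 nt and ended at base 49, past the anticodon. The next family, Glu-TTC, had 24 such starts with 734, 1016 and 878 reads. Arg-CCG had 7 starts with 237, 205 and 245 reads. Its leading start was at base 44 of n-TRccg2, at chr17:23687227-23687259 (minus strand), and 86.8% of its reads had 33 nt and ended at base 76, 3 bases past the gene of 73 bases.

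Such 3′ fragments recurred among these starts. Mature tRNAs carry an added CCA at the 3′ end, which the gene does not encode. At 41 of the 97 starts inside tRNA genes, the most abundant length ended 3 bases past the gene, and these starts held 3065 reads. Of all reads at starts inside tRNA genes, 12.4% were recorded with no mismatch and yet not marked as exact, compared with 0.735% at the 5′ ends. The sources used here do not explain this mark, and whether these reads ended in CCA was not tested.

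Behind the 3′ end of tRNA genes, where the precursor has a trailer that is removed during maturation, 2 starts held nearly all the reads. The start 1 base past n-THgtg5, at chr2:122203776-122203809 (plus strand), had 1527, 1585 and 1475 reads. The start 1 base past n-TTcgt5, a threonine tRNA gene, at chr16:13437488-13437519 (plus strand), had 1273, 1325 and 1178 reads, and the last base mismatched in 31.97% of them. In RPM, replicate 1 was the highest library at both genes, with 169 against 149.5 and 148 behind n-THgtg5 (2 starts together) and 137 against 123 and 115 behind n-TTcgt5, whereas it was the lowest library for the 5′ fragments of His-GTG. The starts behind n-TQctg3, n-TTagt3 and n-TSgct6 had 133, 105 and 102 reads in the 3 libraries together.

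Among the 15 leading groups, 2 unnamed ones stood out. The bases deduced for their leading starts are shown because they can be set against the tRNA families above, with n for a base that was not resolved. Only positions resolved in both were compared below. Some of them lie past the last base printed here, so the counts are not those of the printed bases alone.
unnamed start on chromosome 9: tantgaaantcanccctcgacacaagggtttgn
unnamed start on chromosome 12: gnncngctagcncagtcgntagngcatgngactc
The start at chr12:72070146-72070179 (minus strand) belonged to a group of 2 loci with 3396, 4104 and 3782 reads, a CV of 1.81%. It was equal to Lys-CTT at 27 of 27 positions compared, and at 5 of 27 when Lys-CTT was read in reverse, but it lay in no located tRNA gene. The start at chr9:118584071-118584103 (minus strand) belonged to a group of 4 loci with 7880, 7212 and 7915 reads. It was equal to the 7 tRNA genes above at 3 to 5 of the positions compared. An example is 5 of 29 in Val-CAC, compared with 7 of 29 when Val-CAC was read in reverse. Of the remaining leading groups outside tRNAs, 2 were snoRNA fragments, a group of 3 loci with Gm24920 (1098 ± 9.58 RPM) and Snord52 (206 ± 35.8 RPM; SD, n = 3). A further 2 were rRNA fragments, at chr8:126078045-126078078 (277 ± 175 RPM) and at chrX:5684095-5684128 (201 ± 37.9 RPM; SD, n = 3). The last, with 2 loci led by the start at chr11:48614400-48614434, held starts that matched several snoRNAs and starts that matched Rack1, a protein-coding gene, and had 6163 reads (202 ± 21.3 RPM; SD, n = 3).

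The replicate spread of the 1457 starts was near that of other starts. The median CV was 17.5%, compared with 17.96% at the 18041 other starts with 20 or more reads. Among starts with 20 to under 50 reads the medians were 22.9% and 22.5%, and among those with 1000 or more reads 10.2% and 9.49%. The upper quartile of the latter was 20.3% at these starts and 14.9% at the others. The 290 starts with 200 or more reads had a median of 11.4%.

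Among the starts with 200 or more reads, the largest CV was that of a 5S rRNA start, n-R5s28 at chr17:47985783-47985816 (plus strand), at 173%, with 2053, 0 and 0 reads. It was followed by rRNA starts on chromosome 8 at 88.1% and 63.4% and by unnamed starts at chr17:50559454-50559486 (67.6%) and chr6:38483972-38484006 (61.0%). Of the reads at rRNA starts, 80.1% were recorded with no mismatch and yet not marked as exact. The smallest CVs were those of an unnamed start at chr7:51505822-51505855, with 172, 203 and 190 reads (0.611%), of a snoRNA start with 3 copies, including Gm24920 (0.938%), and of n-TCgca56, a cysteine tRNA gene at chr11:97658386-97658418, with 154, 177 and 165 reads (1.20%). The 91 tRNA starts of this depth had CVs from 1.20% to 45.7%, with a median of 11.5%.

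**Figure D5:**
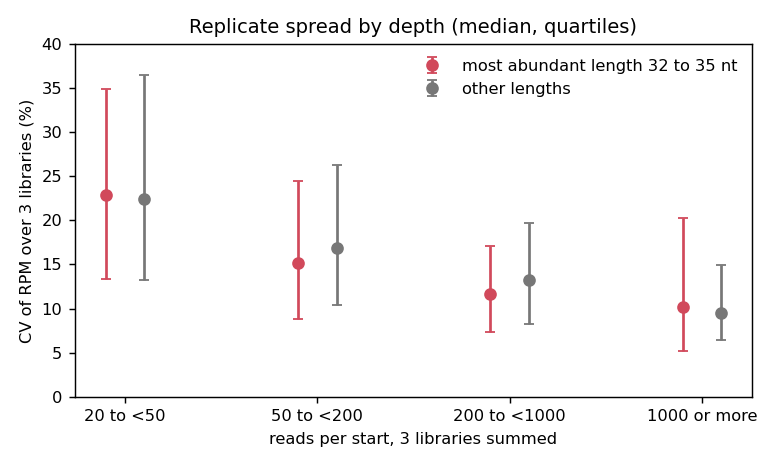
Median and quartiles of the CV of RPM over the 3 libraries, by the reads per start, for the starts with a most abundant length of 32 to 35 nt and for the starts with other lengths. The medians fell with depth in both, from 22.9% and 22.5% at 20 to under 50 reads to 10.2% and 9.49% at 1000 or more.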

How the data were processed

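Small RNA from 3 MIN6 replicates, prepared as TruSeq small RNA libraries, was described from the alignments that the authors deposited, whose values are expected counts, not normalized. Per the labels and methods, adaptors were removed with cutadapt, reads of 14 to 41 nt were aligned without mismatches with Bowtie (at most 20 loci), the rest were aligned with mismatches near exact matches, and reads with several loci were divided equally. The build named in the submitters' processing notes is mm9. Since mismatched reads were sought only near exact ones, and divided among fewer or other copies, mismatch shares were summed over a family.

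The length and 5′ start of each alignment were computed, with 1 base added to the end of those marked exact. Python 3.11.15, numpy 2.4.6, pandas 2.3.3, scipy 1.17.1, statsmodels 0.14.6 (Wilson intervals) and matplotlib 3.10.9 were used. RPM is relative to all mapped reads of a library. At the depth of 9269795 to 10816006 reads, the intervals given cover counting error only and not the spread between libraries. No genome of the same build was used. tRNA genes of RefSeq (GRCm38.p6, names and spacing only) were located by their spacing to at least 3 landmarks within 5 Mb (mature miRNA starts or other tRNA genes), which located 296 of 408 genes, and none when the positions were mirrored. As a check, 90 of 90 anticodon bases resolved in 49 genes equalled the gene name, with the anticodon position of Gly-CCC and Cys-GCA set to base 33 after base 34 had not fitted. Copies share reads, and some anticodon bases were pooled over copies, so the 90 bases are not independent. Other RNAs were named from deduced bases against GENCODE transcripts at 24 or more bits, which named 271 starts, and 0 with reversed sequences. Unlocated copies that shared exact reads with a located gene were counted with its family together with their other starts, and positions were set so that copies sharing reads agreed, both decided after seeing the data. On simulated data, the true gene was among the matches for 158 of 158 starts with enough bases. This was fixed in advance, because the simulation never excluded the true base, so it does not measure wrong names.

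The libraries form 1 group, the condition of 25 mM glucose, and no test between groups was made. The starts, families and lists were chosen with earlier results of these data known. Loci named in the text are the 15 leading groups, those at the minimum of 20 reads, identified genes summarised by tRNA family, and the 5 starts with the largest and the smallest CV at 200 or more reads. Alternatives were other read minimums, length ranges and distances, exact or whole-number alignments only, other tolerances and scalings, and leaving out each library. The mitochondrial starts were left out by the rule. Mir451a and Mir142, markers of blood cells, were not identified by the matching used here, and the other markers were not used. One sequence is not reported here.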

Additional observations from a re-analysis of the deposited data

Results flagged for a closer look

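Outside the nuclear starts described above, the mitochondrial genome held 151 starts of 20 or more reads with a most abundant length of 32 to 35 nt, a signal in data that the report's values do not use. They held 3731, 4078 and 4093 reads in replicates 1, 2 and 3, and the largest of them had 817 reads and a most abundant length of 33 nt. With 3 libraries of 1 condition, no library was tested for standing apart from the others.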

How the results depend on the processing

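The number of starts depended on the limits. It was 2267 with a minimum of 10 reads, 785 with a minimum of 50, 2719 with lengths of 30 to 36 nt, 704 with 33 to 34 nt and 850 with whole-number counts only, and 1063 to 1145 without 1 of the libraries. The share of mapped reads moved to 3.20% with only the reads of 32 to 35 nt counted, 5.08% with lengths of 30 to 36 nt and 2.75% without the leading Gly-GCC group, and was 3.76% to 4.04% without 1 of the libraries. The share of reads with 1 locus moved to 17.4% when recurring whole numbers were left out, an alternative chosen after seeing the data, and was 32.5% to 40.2% without 1 of the libraries, with 32.5% when replicate 3 was left out. The share of reads at the most abundant length moved to 61.8% with exact alignments only and 49.0% with each start weighted equally. The other 29 values of these and the remaining results (loci, groups of copies, CV, last base, tRNA identity) stayed within 1.5 times or 1 SD. Leaving out replicate 1 raised the mean of Val-AAC/CAC from 11107 to 13402 RPM and that of His-GTG from 549 to 675 RPM. With exact alignments only, also chosen after seeing the data, His-GTG fell to 208 RPM, below Glu-TTC, which moved from 341 to 396 RPM, so that their order turned. Lys-CTT moved from 2805 to 3153 RPM and Glu-CTC from 2126 to 2315 RPM under the same setting. Without the 2 starts joined only through other starts of their copy, Glu-TTC fell to 182 RPM, an alternative likewise chosen after seeing the data. No paired analysis was possible because the libraries share 1 condition. Division of reads among copies, 3 libraries and unlocated genes limit what can be said of single genes.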
